A study of Mus musculus with 10 samples.

Results

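The interferon response genes are 35 genes that carry the type I and type II interferon response, from the receptor chains through the transcription factors to the antiviral effectors. They were chosen by name: a gene belonged when its symbol in the count table equalled one of 35 listed symbols, a rule that uses no measured value. All 35 were found among the 55401 genes of the table, and 33 of the 14815 genes with enough counts to be tested were among them. RNA was sequenced from cells labelled as lymphatic endothelial cells of the brain's coverings (meningeal LECs). They came from female C57BL/6 mice (C57BL/6J in the study's reporting summary) of 3 months of age. Naive mice were left unstressed (5 replicates), and the other mice went through sub-chronic variable stress (SCVS), in which foot shock, tail suspension and restraint alternate over 6 days (5 replicates). The labels name no allele or drug in either group. In each replicate, cells of 3 to 4 meninges were pooled, digested in the presence of the transcription blocker actinomycin D, and sorted as living CD45-CD31+PDPN+ cells, so that a replicate is a pool of animals and its value is a mean over them.

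Interferons are secreted signals of infection and inflammation. Type I interferons bind a receptor made of IFNAR1 and IFNAR2, and interferon gamma binds one made of IFNGR1 and IFNGR2. The receptors activate STAT proteins, which enter the nucleus, with IRF9 in the type I pathway, and bind short DNA elements at the promoters of interferon-stimulated genes. The products of these genes degrade viral RNA, block its translation, hold virions at the membrane or feed back on the pathway itself. Endothelial cells of blood and lymphatic vessels express the receptors and keep part of the response switched on at a low level in the absence of infection.

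The values are CPM, the counts of a gene per 1000000 counts of its replicate, and totals per replicate lay between 9984743 and 14094155. At this depth 3 counts, taken as the floor of detection, were 0.213 to 0.3005 CPM, a limit that takes in counting error alone, since reads from amplified RNA do not stand for separate molecules. Some replicates stood apart in cell type markers. In naive replicate 5, 7 pan-endothelial markers such as Pecam1 and Cdh5 summed to 291 CPM, against 2651 to 5741 CPM in the other 9 replicates, all 7 being above 3 counts in every replicate, and 6 neuronal and glial markers summed to 3392 CPM, the highest of the 10 (151 to 1869 CPM elsewhere). In SCVS replicate 4, 10 macrophage markers such as C1qa and Csf1r summed to 6620 CPM, all 10 being above 3 counts, against 1.25 to 1121 CPM elsewhere, and 6 leukocyte markers to 391 CPM (1.31 to 210.3 CPM elsewhere). In SCVS replicate 5, 5 erythroid markers summed to 4863 CPM, against 4.32 to 125 CPM elsewhere, and 6 fibroblast markers to 1481 CPM, the highest of the 10 (62.0 to 1064 CPM elsewhere). Of the fibroblast markers only Dcn (11569 counts) was highest there. Col1a1 (538 counts) and Lum (2417 counts) were highest in naive replicate 2 (5817 and 4587 counts). Markers of the labelled lymphatic cells were present to differing degrees. In all 10 replicates 8 blood endothelial markers summed to more than the 9 lymphatic markers. Lymphatic markers summed to 74.4 CPM in naive replicate 1, where Prox1, Tbx1 and Pdpn had 0 counts. There 5 of the 9 were above 3 counts, among them Flt4 (376 counts), Mmrn1 (165) and Maf (141). The highest lymphatic sum was 3243 CPM, in SCVS replicate 3, where the blood endothelial sum was 5403 CPM. The 8 blood endothelial markers summed to 5219 to 10273 CPM outside naive replicate 5. In naive replicate 5 they summed to 313 CPM, against 196 CPM for the lymphatic markers. The sum of 6 mural markers ran from 413 CPM in SCVS replicate 5 to 7675 CPM in naive replicate 1. In naive replicate 5 it was 5078 CPM, most of it Rgs5 (67407 counts), and 2 of the 6 markers were above 3 counts. Acta2 had 276 counts there, and Pdgfrb, Des and Tagln had 0. In SCVS replicate 5, with the lowest sum, 5 of the 6 were above 3 counts, among them Pdgfrb with 457 counts. The part of these cell types in the results below was not tested, and values without a library are given beside the results it moved most. In sorted bulk RNA, fewer cells of a type and less RNA per cell cannot be told apart.

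The promoters carry the DNA elements by which the pathway is wired, and 4 of them are shown here because their genes are read against each other below. RefSeq promoters (assembly GRCm38.p6, 250 bases before to 50 after the start of transcription) were at hand for 31 of the 35 genes, and Mx1, Mx2, Usp18 and Ifi27 had no entry. The interferon-stimulated response element (ISRE), the element of the type I response, was searched on both strands as GAAA, any 2 bases and GAAA again, and the gamma-activated site (GAS), an element of the interferon gamma response, as TTC, any 3 bases and GAA. Both begin or end in GAA or TTC, so that a stretch of DNA can match the pair of them. The 160 bases before the start are printed 5′ to 3′ along each gene's own strand, with ISRE matches in capitals.
Ifit1 (chr19:34640729-34640888, plus strand): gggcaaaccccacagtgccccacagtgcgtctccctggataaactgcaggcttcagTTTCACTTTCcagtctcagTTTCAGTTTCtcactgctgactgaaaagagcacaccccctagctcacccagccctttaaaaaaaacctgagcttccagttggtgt
Ifit3 (chr19:34583369-34583528, plus strand): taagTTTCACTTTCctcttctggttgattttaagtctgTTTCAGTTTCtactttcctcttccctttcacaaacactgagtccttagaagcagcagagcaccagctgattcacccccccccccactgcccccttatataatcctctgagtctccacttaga
Ifit2 (chr19:34550534-34550693, plus strand): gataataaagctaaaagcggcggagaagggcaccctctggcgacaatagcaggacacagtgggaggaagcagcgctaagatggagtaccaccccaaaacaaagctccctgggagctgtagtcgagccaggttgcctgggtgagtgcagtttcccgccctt
Isg15 (chr4:156200819-156200978, minus strand): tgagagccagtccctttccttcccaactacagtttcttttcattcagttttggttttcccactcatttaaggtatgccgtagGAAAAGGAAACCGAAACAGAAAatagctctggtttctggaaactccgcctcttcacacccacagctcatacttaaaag
Ifit1 had 2 matches, beginning 104 and 85 bases before the start, and Ifit3 had 2, at 156 and 122 bases. Isg15 had 3 overlapping matches at 78, 72 and 66 bases. Ifit2, the neighbour of Ifit1 and Ifit3, had none in either of its 2 RefSeq promoters, which says only that these letters are not in the windows searched. Of the 31 genes, 15 held an ISRE match (48.4%), against 3.82% of the 10610 tested genes with a promoter entry and 3.44% of all 32851 promoters. The 15 were Stat2, Irf2, Ddx58, Ifih1, Ifit1, Ifit3, Ifitm2, Ifitm3, Oas1a, Gbp2, Gbp3, Gbp7, Isg15, Bst2 and Rsad2, and the 4 receptor genes held none. A GAS match was found in 11 of the 31 (35.5%), against 8.11% of the tested genes and 8.30% of all promoters, among them Ifnar1, Ifnar2, Irf1 and Irf8.

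Interferon response genes were expressed in all 10 replicates. The mean level of a tested member had a median of 95.6 CPM, against 21.0 CPM over all tested genes, and 25 of the 33 were above 3 counts in every replicate, which was so for 38.1% of all tested genes. Counts that swing between 0 in one replicate and 100 or more in another were seen for 5 of the 33 members and for 48.3% of all tested genes. Levels between genes were compared per length, as CPM per kb of exon in the mm9 annotation. By mean over the 10 replicates Ifitm3 led with 2053 CPM per kb and Ifitm2 followed with 1489. Both code for small membrane proteins that keep viruses from leaving the endosome. Bst2, which codes for the virion-holding protein tetherin, came next with 299 CPM per kb, then Ifi27 with 180.2, Ifi35 with 125 and Ifngr1 with 101. At the low end stood Oasl1 with 6.39, Irf8 with 1.96, Mx2 with 0.551 and Mx1 with 0.338 CPM per kb. The ranges of Ifitm3 and Ifitm2 over the replicates overlapped, as did those of every pair of neighbours in the order.

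**Figure D1:**
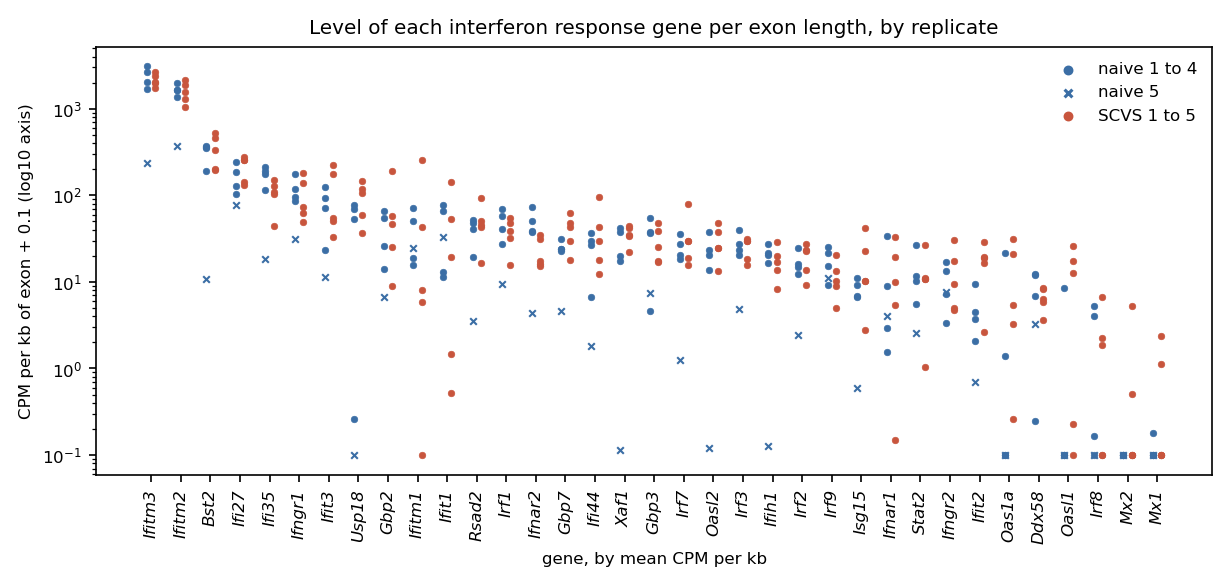
Level of each of the 35 genes as CPM per kb of exon plus 0.1 (log10 axis), ordered by the mean over 10 replicates; each point is 1 replicate, blue for naive and red for SCVS, with a cross for naive replicate 5, and points at the bottom are replicates listed at 0. Ifitm3 and Ifitm2 lie above the others in most replicates, and the cross of naive replicate 5 is the lowest point for 22 of the 33 tested genes.

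The summed level of the 35 genes was lowest and highest in the libraries that stood apart. In naive replicates 1 to 5 it was 5581, 7195, 6501, 5381 and 1086 CPM, and in SCVS replicates 1 to 5 it was 6329, 5907, 4879.6, 8372 and 6045 CPM. Naive replicate 5 lay far below the other 9 and SCVS replicate 4 was the highest. The means were 5149 ± 2385 CPM (SD, n = 5) in naive mice and 6307 ± 1278 CPM (SD, n = 5) after SCVS, and 6165 ± 843 CPM (SD, n = 4) in naive mice without naive replicate 5. Relative to the pan-endothelial sum, the same replicate was at the other end: its ratio of member sum to pan-endothelial sum was 3.73, against 1.03 to 2.15 in the other 9. Gene by gene, naive replicate 5 was the single lowest of 10 for 22 of the 33 tested members, which was so for 11.1% of all tested genes, and SCVS replicate 4 the single highest for 13 of 33, against 9.15%. SCVS replicate 5 was the highest for 6 of 33, Ifit1, Ifit3, Ifitm1, Oas1a, Oasl1 and Rsad2, against 7.91%.

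**Figure D2:**
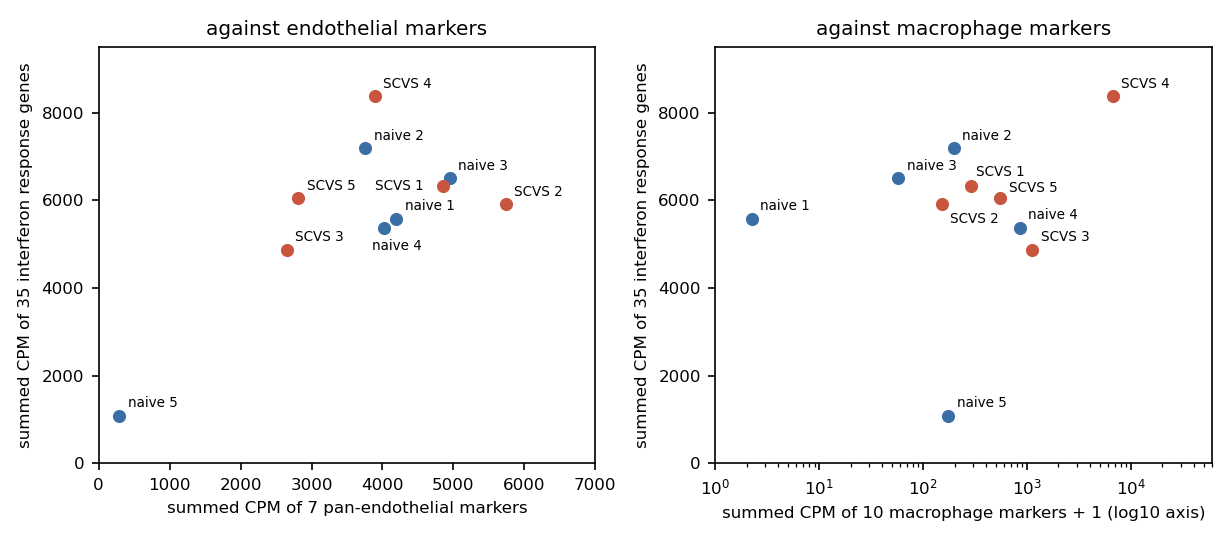
Summed CPM of the 35 interferon response genes in each replicate (y axes) against the summed CPM of 7 pan-endothelial markers (left) and of 10 macrophage markers plus 1 on a log10 axis (right); blue points are naive and red points SCVS replicates. Naive replicate 5 sits alone at 1086 CPM of interferon response genes and 291 CPM of endothelial markers, and SCVS replicate 4 at 8372 CPM of interferon response genes and 6620 CPM of macrophage markers.

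No interferon response gene passed the test between SCVS and naive mice. edgeR's quasi-likelihood test called 0 of the 33 tested members at a Benjamini-Hochberg adjusted p under 0.1, as it called 0% of the 14815 tested genes, with 460 genes (3.1%) and 1 member, Ifit2, at an unadjusted p under 0.05. DESeq2 called 0 members among 114 genes (0.769%), and 0 among 270 genes (1.82%) without naive replicate 5. Without that replicate 2 members, Ifit2 and Ifnar2, had an unadjusted p under 0.05 in edgeR, against 5.48% of all tested genes. The fitted log2 fold change was above 0 for 27 of the 33 members, with a median of 0.42, against 48.2% of all tested genes and a median of −0.03. This leaning towards SCVS changed with the libraries named above: without naive replicate 5 it was 20 of 33 with a median of 0.16 (51.9% of all genes), without SCVS replicate 4 it was 21 with a median of 0.14, without SCVS replicate 5 it was 26 with a median of 0.26, and without both naive replicate 5 and SCVS replicate 4 it was 12 with a median of −0.12 (50.6% of all genes). With the pan-endothelial level as a covariate, a fit chosen after seeing the data, it was 25 with a median of 0.36 (54.8% of all genes). The fold change exceeded its standard error for 11 members, 9 upward and 2 downward, against 21.4% of all tested genes, and for these 11 it is given below. Without naive replicate 5 it was 0.47 for Ifit3, 2.45 for Oasl1, 1.02 for Isg15, 0.34 for Ifi27 and -0.66 for Irf9, and the other 6 are given with their genes. The naive and SCVS ranges of CPM overlapped for all 33, leaving 0 that did not, against 0.628% of all tested genes.

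**Figure D3:**
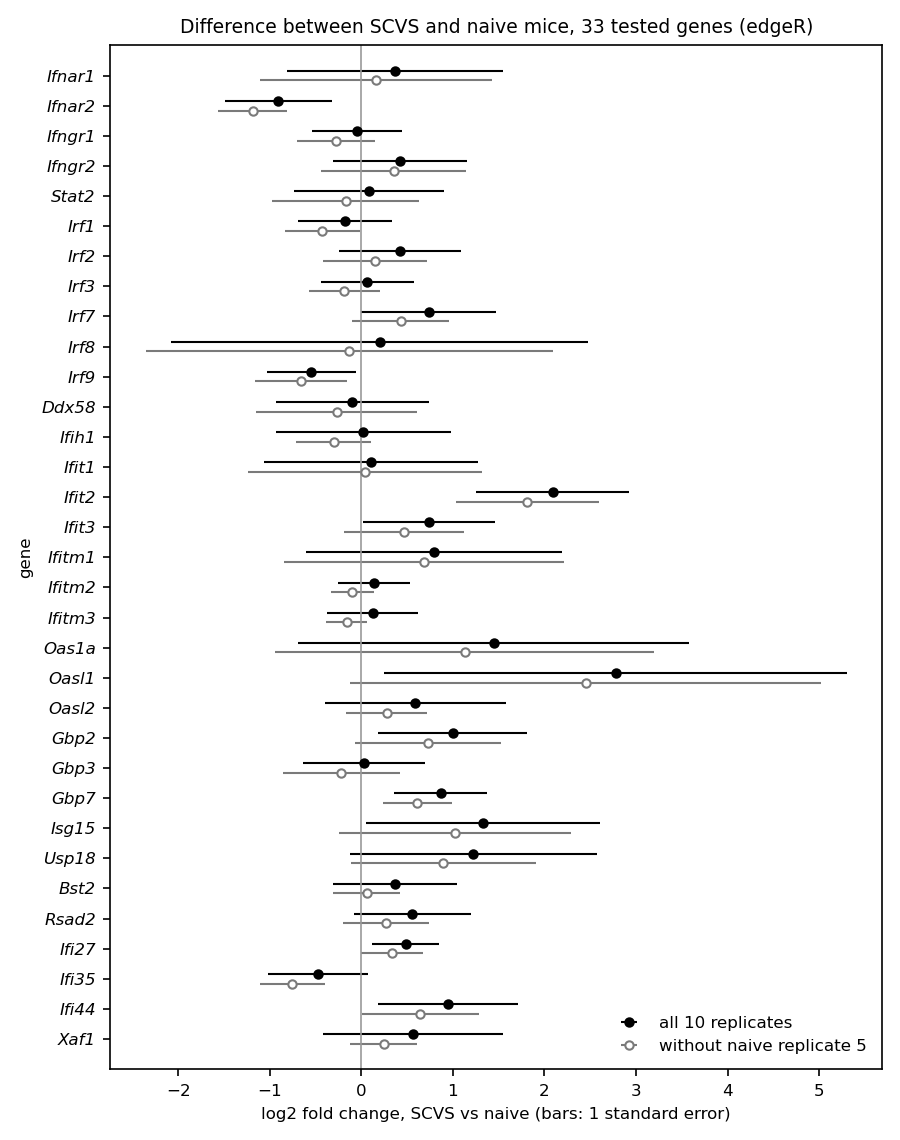
log2 fold change of SCVS over naive for the 33 tested genes, in order of role, with bars of 1 standard error (edgeR); filled points use all 10 replicates and open points leave out naive replicate 5. Most filled points lie right of 0 with bars that cross it, and the open points lie to the left of the filled ones.

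**Figure D4:**
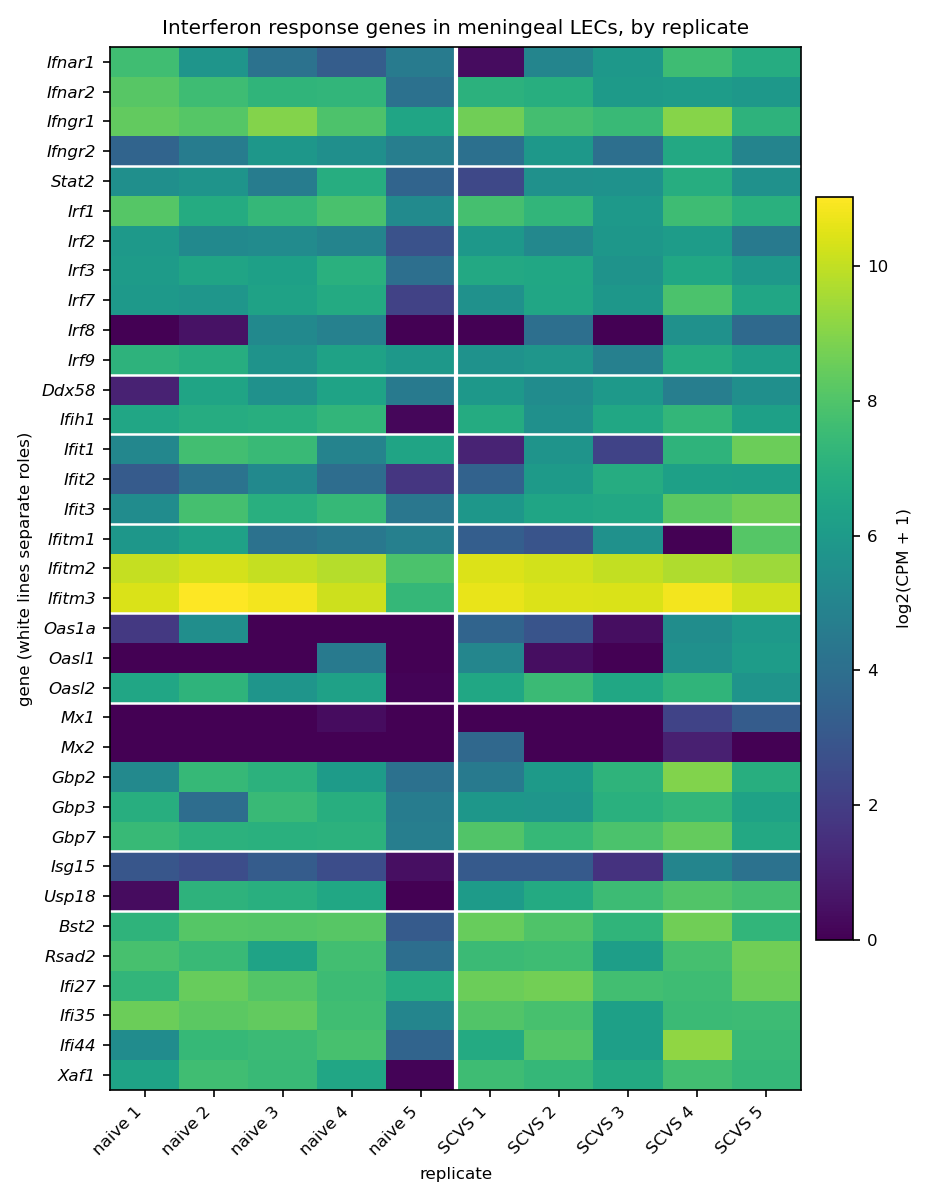
Heat map of log2(CPM + 1) for the 35 genes (y axis, grouped by role between white lines) in 5 naive and 5 SCVS replicates (x axis). The column of naive replicate 5 is darker than the others over most genes, Ifitm2 and Ifitm3 are bright throughout, and Mx1, Mx2, Oas1a, Oasl1 and Irf8 are at or near 0 in several replicates.

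All 4 receptor chains were above 3 counts in every replicate, and their summed level was 539 ± 261 CPM (SD, n = 5) in naive mice and 500.0 ± 231 CPM (SD, n = 5) after SCVS. The naive sum was 635 ± 169.8 CPM (SD, n = 4) without naive replicate 5, and the difference between the groups took either sign as each replicate was left out (−135 CPM without naive replicate 5, 7.95 CPM without SCVS replicate 3). Ifnar2, which codes for the high-affinity chain of the type I receptor (ENSMUSG00000022971, mm9 chr16:91373028-91419696), was measured at 285, 194, 146, 152 and 16.5 CPM in naive replicates 1 to 5. In SCVS replicates 1 to 5 it was 136, 120.0, 62.9, 67.6 and 58.5 CPM. Naive replicates 1 to 4 all lay above every SCVS replicate, while naive replicate 5 lay below them all. The means were 159 ± 96.9 CPM (SD, n = 5) in naive mice and 89.0 ± 36.2 CPM (SD, n = 5) after SCVS, a log2 fold change of -0.90 ± 0.59 (SE) with an exact permutation p of 0.190 (two-sided). Naive replicate 5 held the lowest naive value of Ifnar2, and leaving it out can only widen the difference. Without naive replicate 5 the log2 fold change was -1.19 ± 0.37 (SE), with an exact permutation p of 0.0159. The groups then did not overlap, a pattern seen in this direction for 0.533% of all tested genes. Ifnar2 was then the only such member, and it was so again without both naive replicate 5 and SCVS replicate 4 (0.965% of all tested genes). Its adjusted p was 0.826 (edgeR) and 0.138 (DESeq2) without that replicate, and over the remaining alternatives it ran from 0.453 to 1.00, so that Ifnar2 did not pass across all genes. Without naive replicate 1, the highest, the log2 fold change was −0.55. Its mm9 interval overlaps Il10rb, a receptor gene on the same strand. Of the 2948 100-base windows of its transcript, 0 were found in a protein-coding transcript of another gene.

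The partner chain Ifnar1 was scattered: 199, 52.1, 16.8, 8.62 and 23.3 CPM in naive replicates 1 to 5 and 0.284, 31.3, 57.9, 194 and 113 CPM in SCVS replicates 1 to 5. SCVS replicate 1 was close to the floor, and naive replicate 1 and SCVS replicate 4 were the highest. Ifngr1, the ligand-binding chain of the interferon gamma receptor and the most abundant receptor transcript per length (101 CPM per kb, against 31.8 for Ifnar2, 11.9 for Ifnar1 and 11.5 for Ifngr2), stood at 333, 274, 500.3, 246 and 89.0 CPM in the naive and 396, 210.5, 176, 518 and 138 CPM in the SCVS replicates. The means were 289 ± 149 CPM (SD, n = 5) in naive mice and 288 ± 162 CPM (SD, n = 5) after SCVS, and 338 ± 114 CPM (SD, n = 4) in naive mice without naive replicate 5. Ifngr2, the signalling chain, was at 10.7, 23.6, 55.8, 43.9 and 25.3 CPM in the naive and 16, 58.1, 15.3, 100.3 and 30.7 CPM in the SCVS replicates, the highest being SCVS replicate 4. Ifnar1, Ifnar2 and Ifngr2 lie close together on mm9 chromosome 16, between 91373028 and 91565414, and Ifngr1 is on chromosome 10.

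Among the transcription factors, summed levels were 483 ± 227 CPM (SD, n = 5) in naive mice and 511 ± 212 CPM (SD, n = 5) after SCVS. The naive sum was 571 ± 132 CPM (SD, n = 4) when naive replicate 5 was left out, above the SCVS mean, and the difference ran from −61.1 CPM without SCVS replicate 4 to 86.3 CPM without naive replicate 4. Irf7, the factor that amplifies type I interferon production (ENSMUSG00000025498, mm9 chr7:148448605-148452380), was measured at 61.2, 54.9, 81.4, 107 and 3.45 CPM in naive replicates 1 to 5 and 46.9, 90, 56.5, 238 and 90 CPM in SCVS replicates 1 to 5. SCVS replicate 4 was far above all others and naive replicate 5 far below. The log2 fold change was 0.74 ± 0.74 (SE) with an exact permutation p of 0.357. The fold change was 0.43 without naive replicate 5 and -0.15 once both of these replicates were left out, and 0.14 without SCVS replicate 4 alone. Irf7 overlaps Phrf1 on the opposite strand. Irf9, the DNA-binding partner of STAT2 (ENSMUSG00000002325, mm9 chr14:56222408-56228867), had 137, 115, 49.1, 80.7 and 58.4 CPM in the naive and 48.2, 54.6, 26.7, 109 and 71.2 CPM in the SCVS replicates. The groups overlapped over most of their range, and naive replicates 1 and 2 were the highest. Its means were 88.1 ± 37.4 CPM (SD, n = 5) in naive mice and 62.0 ± 30.8 CPM (SD, n = 5) after SCVS, a log2 fold change of -0.55 ± 0.49 (SE) with an exact permutation p of 0.230. The fold change was −0.30 without naive replicate 1. It overlaps Rnf31 on the same strand, with less than 1% of its transcript in common.

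Stat2, the STAT protein particular to type I signalling, was at 44.4, 50.6, 23.8, 117 and 10.8 CPM in the naive and 4.19, 47.2, 48.5, 116 and 47.1 CPM in the SCVS replicates. In both groups replicate 4 was the highest, at nearly the same level. Irf1, the main factor induced by interferon gamma, was at 277, 109, 162, 229 and 37.2 CPM in the naive and 215, 153, 62.4, 192 and 126 CPM in the SCVS replicates. Naive replicates 1 and 4 lay above every SCVS replicate and naive replicate 5 below them all. Irf2, which competes with IRF1 for the same sites, was at 60.8, 36.7, 39.3, 30.3 and 5.85 CPM in the naive and 57.2, 33.9, 56.6, 67.9 and 22.3 CPM in the SCVS replicates, with naive replicate 5 alone at the bottom. Irf3, which is activated by the RNA and DNA sensors without new synthesis, was at 65.2, 86.0, 75.1, 126 and 15.4 CPM in the naive and 101, 93.4, 49.7, 94.5 and 58.3 CPM in the SCVS replicates. Its means were 73.6 ± 39.9 CPM (SD, n = 5) in naive mice and 79.3 ± 23.5 CPM (SD, n = 5) after SCVS, and 88.1 ± 26.8 CPM (SD, n = 4) in naive mice without naive replicate 5. Irf8, a factor best known from macrophages and dendritic cells, was at 0, 0.470, 36.1, 27.4 and 0 CPM in the naive and 0, 15.3, 0, 46.8 and 12.5 CPM in the SCVS replicates. It was listed at 0 in 2 naive and 2 SCVS replicates and was highest in SCVS replicate 4, the library with the most macrophage marker counts. The other replicates did not keep this order. SCVS replicate 3, next in macrophage markers with 1121 CPM, had Irf8 at 0. Naive replicate 3, next in Irf8 with 36.1 CPM, had 56.7 CPM of macrophage markers. Of 6 markers of plasmacytoid dendritic cells, Irf8 being one, 1 to 4 were above 3 counts in a naive replicate and 0 to 4 in an SCVS replicate. Siglech, a plasmacytoid dendritic cell marker, was above 3 counts in the 5 replicates in which Irf8 was above 10 CPM, and also in naive replicate 5 (11 counts), where Irf8 was at 0. The other markers of the list differed from Irf8 in the replicates that held them. Runx2 had 0 counts in naive replicate 3 and 160 in naive replicate 2, and Klk1 had 131 in naive replicate 1. Ccr9 had counts only in SCVS replicate 2 (60) and Cox6a2 only in naive replicate 4 (6). The part of these cells in the level of Irf8 was not tested.

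The summed level of the RNA sensors was 143 ± 85.3 CPM (SD, n = 5) in naive mice and 142 ± 38.8 CPM (SD, n = 5) after SCVS. Leaving out naive replicate 5 gave a naive sum of 173 ± 60.6 CPM (SD, n = 4), and the difference took either sign as each replicate was left out (−30.7 to 22.2 CPM). Ddx58, which codes for the sensor RIG-I, was at 1.06, 86.8, 47.2, 83.0 and 22.1 CPM in the naive and 57.3, 40.7, 59.1, 25.1 and 44.4 CPM in the SCVS replicates, with a wide naive range that enclosed all SCVS values. Ifih1, which codes for MDA5, the sensor of long double-stranded RNA, was at 90.5, 111, 119.6, 151 and 0.150 CPM in the naive and 110.3, 45.5, 94.0, 158 and 75.7 CPM in the SCVS replicates. Outside naive replicate 5, which had only 2 counts, the naive range of Ifih1 lay within that of SCVS mice.

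The IFIT genes code for proteins that bind viral RNA and block its translation, and they sit in one cluster on mm9 chromosome 19. Their sum was 235 ± 153 CPM (SD, n = 5) in naive mice and 370.1 ± 312 CPM (SD, n = 5) after SCVS. The difference of 135 CPM was 103 CPM without naive replicate 5 and 17.0 CPM without SCVS replicate 5. Ifit2 (ENSMUSG00000045932, mm9 chr19:34625184-34650909) showed the largest difference of any tested member relative to its error with all replicates in the fit, while without naive replicate 5 Ifnar2 did. It was measured at 7.87, 17.3, 36.3, 14.4 and 2.33 CPM in naive replicates 1 to 5 and at 10.1, 64.3, 114, 75.9 and 74.2 CPM in SCVS replicates 1 to 5. Of the SCVS replicates, 4 lay above every naive replicate, and SCVS replicate 1 lay within the naive range. The means were 15.6 ± 13.0 CPM (SD, n = 5) in naive mice and 67.7 ± 37.4 CPM (SD, n = 5) after SCVS, a log2 fold change of 2.09 ± 0.84 (SE). The two-sided exact permutation p was 0.0317, where the smallest that 5 against 5 replicates can give is 0.00794. The share of all tested genes with an exact p under 0.05 was not computed. Of the 35 genes only Ifit2 had one, without adjustment. In edgeR its unadjusted p was 0.0286 and its adjusted p 1.00. DESeq2 gave an adjusted p of 0.384, and the adjusted p ran from 0.296 to 1.00 over the alternatives. Without naive replicate 5 the log2 fold change was 1.81 ± 0.78 (SE) (exact permutation p = 0.0476), and without SCVS replicate 3, the highest, the exact permutation p was 0.0635. Without SCVS replicate 1, which held the lowest SCVS value, the groups did not overlap, which was so in this direction for 0.891% of all tested genes.

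Its neighbours followed another order of replicates. Ifit1 was at 33.9, 206, 174, 29.6 and 86.4 CPM in the naive and 1.14, 50.9, 3.65, 143 and 374 CPM in the SCVS replicates. SCVS replicates 1 and 3 were the lowest of the 10 for Ifit1, although SCVS replicate 3 was the highest for Ifit2. Ifit3 (ENSMUSG00000074896, mm9 chr19:34658021-34663221) was at 40.5, 219.8, 123, 164 and 19.6 CPM in the naive and 56.8, 87.8, 95.7, 305 and 395 CPM in the SCVS replicates, with SCVS replicates 4 and 5 above all the others. The log2 fold change of Ifit3 was 0.74 ± 0.72 (SE) with an exact permutation p of 0.365, and it was 0.26 without SCVS replicate 5. Per length, Ifit3 was the most abundant of the family with 86.3 CPM per kb, against 41.5 for Ifit1 and 10.6 for Ifit2. Of the 100-base windows of the Ifit3 transcript, 31.7% also occur in the neighbouring copy Ifit3b and 3.29% of those of Ifit1 in a related copy, so that reads there could be split between genes, whereas Ifit2 shared none.

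**Figure D5:**
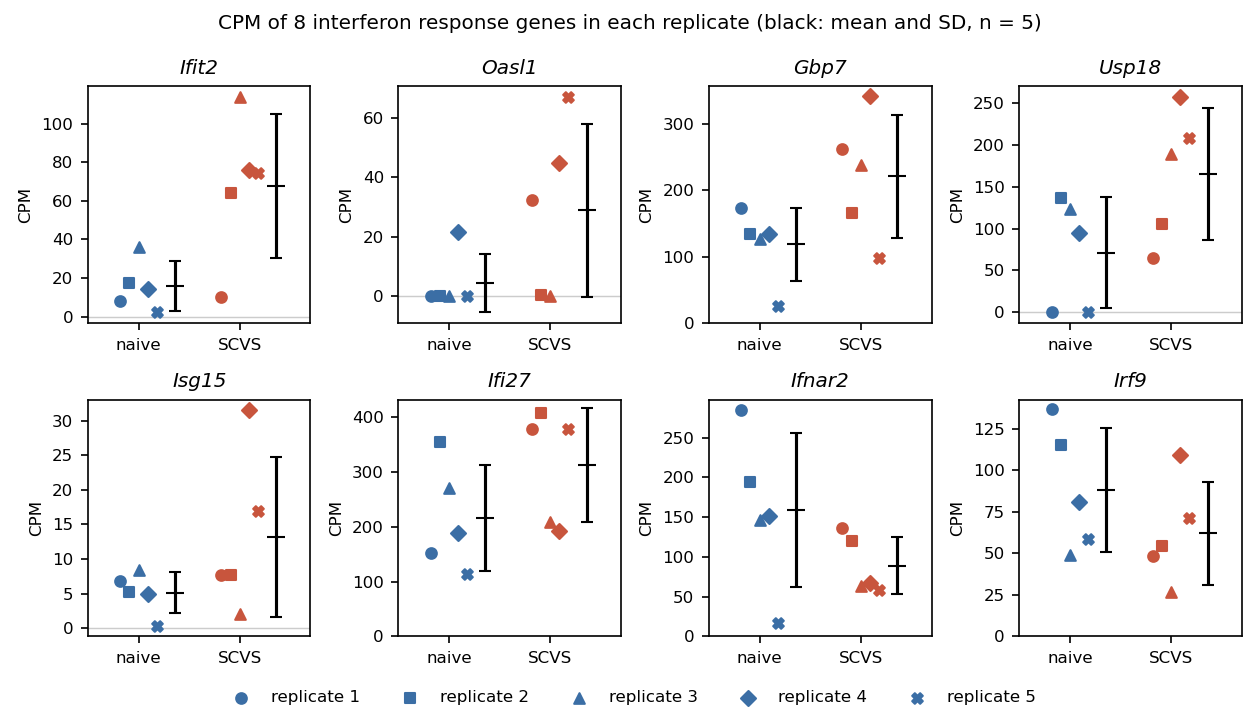
CPM of Ifit2, Oasl1, Gbp7, Usp18, Isg15, Ifi27, Ifnar2 and Irf9 in each replicate (blue naive, red SCVS, a symbol for each replicate number), with the mean and SD of 5 replicates in black at the side. In Ifit2, 4 SCVS points lie above all naive points, and in Ifnar2 the naive points of replicates 1 to 4 lie above all SCVS points.

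The IFITM genes had the highest sum of CPM of any group, 2259 ± 1144 CPM (SD, n = 5) in naive mice and 2571 ± 326 CPM (SD, n = 5) after SCVS. Without naive replicate 5 the naive sum was 2718 ± 586 CPM (SD, n = 4), above the SCVS mean. Ifitm3 (ENSMUSG00000025492, mm9 chr7:148195485-148196669) was at 1369, 2085, 1806, 1152 and 159.8 CPM in the naive and 1617, 1382, 1358, 1802 and 1189 CPM in the SCVS replicates. Ifitm2 (ENSMUSG00000060591, mm9 chr7:148140736-148141882) was at 1068, 1273, 1061, 886 and 238 CPM in the naive and 1407, 1233, 1019, 836 and 674 CPM in the SCVS replicates. Both were lowest in naive replicate 5, and outside it the highest replicate was less than 3 times the lowest. Ifitm1, the family member found mainly at the cell surface, was far less abundant and uneven, at 55.7, 78.1, 17.1, 20.4 and 26.8 CPM in the naive and 8.73, 6.24, 46.7, 0 and 279.9 CPM in the SCVS replicates. SCVS replicate 5 was the highest and SCVS replicate 4 was listed at 0.

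The OAS genes code for the 2′-5′ oligoadenylate synthetases, which switch on the RNA-degrading enzyme RNase L, and for their catalytically inactive or diverged relatives. Their sum was 86.4 ± 68.8 CPM (SD, n = 5) in naive mice and 167 ± 53.0 CPM (SD, n = 5) after SCVS, with 108 ± 56.6 CPM (SD, n = 4) in naive mice without naive replicate 5. Oasl2 supplied most of it, at 89.9, 144, 52.2, 79.0 and 0.0750 CPM in the naive and 94.5, 184, 94.6, 147 and 50.9 CPM in the SCVS replicates. Oasl1, which codes for an inhibitor of Irf7 translation (ENSMUSG00000041827, mm9 chr5:115373249-115387924), was listed at 0 in 4 of 5 naive replicates and at 21.7 CPM in naive replicate 4. Of the SCVS replicates, 3 lay above this value, at 32.4, 45.0 and 67.2 CPM, and the other two at 0 and 0.329 CPM. The log2 fold change of Oasl1 was 2.78 ± 2.53 (SE), less than 1.5 times its error, with an exact permutation p of 0.0873. It rested on the 1 naive replicate with counts: without naive replicate 4 all naive replicates were listed at 0, and the size of the fold change could not be fixed. Oas1a, at 2.59, 42.5, 0, 0 and 0 CPM in the naive and 10.6, 6.24, 0.325, 41.5 and 61.9 CPM in the SCVS replicates, was likewise at 0 in 3 naive replicates and high in naive replicate 2. It shares 40.5% of its 100-base windows with Oas1g, so its counts are uncertain.

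Of the interferon-induced GTPases, Mx1 and Mx2 were barely detected. Mx1 had 4 counts in naive replicate 4, 49 and 83 counts in SCVS replicates 4 and 5, and 0 elsewhere. Mx2 had 174 and 13 counts in SCVS replicates 1 and 4 and 0 elsewhere, and neither gene had enough counts to be tested. The guanylate-binding proteins attack pathogen-containing vacuoles, and their genes lie in one cluster on mm9 chromosome 3. Gbp7 (ENSMUSG00000040253, mm9 chr3:142193302-142213047) was at 174, 134, 126, 134 and 25.3 CPM in naive replicates 1 to 5 and 263, 166, 238, 342 and 98.4 CPM in SCVS replicates 1 to 5. SCVS replicates 1, 3 and 4 lay above every naive replicate, and SCVS replicate 5 lay below 4 of them. The means were 119 ± 55.4 CPM (SD, n = 5) in naive mice and 221 ± 93.1 CPM (SD, n = 5) after SCVS, a log2 fold change of 0.87 ± 0.50 (SE) with an exact permutation p of 0.0794. Without naive replicate 5 it was 0.61 ± 0.38 (SE) with an exact permutation p of 0.135. Without SCVS replicate 5 the exact permutation p was 0.0159, but that replicate held the lowest SCVS value, and leaving it out can only widen the difference.

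Gbp2 (ENSMUSG00000028270, mm9 chr3:142283566-142300972) was at 35.1, 166, 137, 65.1 and 16.5 CPM in the naive and 22.6, 62.6, 145, 483 and 118 CPM in the SCVS replicates. Its highest value was that of SCVS replicate 4, and the other SCVS values lay within the naive range. The log2 fold change was 1.00 ± 0.82 (SE) with an exact permutation p of 0.492. The fold change was 0.72 without naive replicate 5 and -0.22 without both naive replicate 5 and SCVS replicate 4, and it was 0.04 without SCVS replicate 4 alone. Gbp3 was at 121, 14.5, 176, 119.9 and 24.1 CPM in the naive and 56.2, 54.4, 126, 156 and 81.9 CPM in the SCVS replicates, with means of 91.2 ± 69.6 CPM (SD, n = 5) in naive mice and 94.9 ± 44.7 CPM (SD, n = 5) after SCVS, and 108 ± 67.7 CPM (SD, n = 4) in naive mice without naive replicate 5.

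ISG15 is a ubiquitin-like protein joined to other proteins during the response, and USP18 takes it off again and blocks the type I receptor at IFNAR2. Isg15 (ENSMUSG00000035692, mm9 chr4:155573533-155574927) was at 6.81, 5.17, 8.37, 5.01 and 0.375 CPM in naive replicates 1 to 5 and 7.73, 7.72, 2.03, 31.5 and 16.9 CPM in SCVS replicates 1 to 5. SCVS replicates 4 and 5 were above every naive replicate, and SCVS replicate 3 was below 4 of them. The means were 5.15 ± 3.00 CPM (SD, n = 5) in naive mice and 13.2 ± 11.6 CPM (SD, n = 5) after SCVS, a log2 fold change of 1.33 ± 1.28 (SE) with an exact permutation p of 0.175. The exact permutation p was 0.325 without naive replicate 5 and 0.0238 without SCVS replicate 3. The latter replicate held the lowest SCVS value, and leaving it out can only widen the difference. The fold change was 0.68 without SCVS replicate 4 and 0.39 without both naive replicate 5 and SCVS replicate 4. Usp18 was at 0.288, 137, 123, 94.5 and 0 CPM in the naive and 65.3, 105, 189, 258 and 209 CPM in the SCVS replicates. It was at or near 0 in naive replicates 1 and 5, and SCVS replicates 3, 4 and 5 were above every naive replicate. Its means were 71.0 ± 66.5 CPM (SD, n = 5) in naive mice and 165 ± 78.4 CPM (SD, n = 5) after SCVS (exact permutation p = 0.0794), and 88.8 ± 61.6 CPM (SD, n = 4) in naive mice without naive replicate 5 (exact permutation p = 0.159). Per length Usp18 was at 66.7 CPM per kb and Isg15 at 12.1.

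The 6 remaining interferon-stimulated genes summed to 1034 ± 507 CPM (SD, n = 5) in naive mice and 1379.7 ± 409.8 CPM (SD, n = 5) after SCVS, and to 1247 ± 196 CPM (SD, n = 4) in naive mice without naive replicate 5, which was the lowest of the 10 for all 6. Ifi27, a mitochondrial protein gene with strong type I induction (ENSMUSG00000064215, mm9 chr12:104672421-104678449), was at 152, 354, 269.8, 188 and 114 CPM in the naive and 378, 408, 208, 192 and 379 CPM in the SCVS replicates. SCVS replicates 1, 2 and 5 were above every naive replicate. The means were 216 ± 96.5 CPM (SD, n = 5) in naive mice and 313 ± 104 CPM (SD, n = 5) after SCVS, a log2 fold change of 0.49 ± 0.36 (SE) with an exact permutation p of 0.159. Ifi44 (ENSMUSG00000028037, mm9 chr3:151393886-151412911) was at 39.9, 164, 183, 223 and 10.7 CPM in the naive and 108, 265, 74.2, 587 and 178 CPM in the SCVS replicates. SCVS replicate 4 was more than 2 times the next highest. Its log2 fold change was 0.95 ± 0.77 (SE) with an exact permutation p of 0.302. The fold change was 0.65 without naive replicate 5 and -0.02 without both naive replicate 5 and SCVS replicate 4, and it was 0.26 without SCVS replicate 4 alone.

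Bst2 was at 145, 279, 267, 285 and 8.10 CPM in the naive and 351, 253, 149.5, 395 and 154 CPM in the SCVS replicates, with overlapping groups and 8.10 CPM in naive replicate 5. Rsad2, which codes for viperin, a radical enzyme that makes a chain terminator of viral RNA synthesis, was at 222, 177, 83.8, 208 and 14.8 CPM in the naive and 184, 196, 71.3, 215 and 399 CPM in the SCVS replicates. SCVS replicate 5 was the highest and SCVS replicate 3 the lowest after naive replicate 5. Xaf1, a gene of interferon-induced apoptosis, was at 82.3, 196, 175, 91.7 and 0.0750 CPM in the naive and 195, 159.7, 104, 205 and 162 CPM in the SCVS replicates, naive replicate 5 having a single count. Ifi35 was at 369, 304, 330.1, 198 and 31.8 CPM in the naive and 261, 222, 76.7, 180.4 and 187 CPM in the SCVS replicates. It was the one gene of the 6 with a lower mean after SCVS, 247 ± 136 CPM (SD, n = 5) in naive mice and 185 ± 68.7 CPM (SD, n = 5) after SCVS, and its 3 highest values were all naive. Its naive mean without naive replicate 5 was 300.4 ± 73.4 CPM (SD, n = 4) and the exact permutation p was 0.0556, against 0.397 with all replicates. That replicate held the lowest naive value of Ifi35, and leaving it out can only widen the difference.

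The rest of the pathway was read from a list of 111 further genes, of which 86 were tested. The interferon genes themselves were not detected: 10 of 11 listed ligands, among them Ifnb1 and Ifng, had 0 counts in every replicate, which allows up to 0.213 to 0.3005 CPM per replicate, and Ifnz had 13 counts in SCVS replicate 3 alone. edgeR called 0 of the 86, with 1 at an unadjusted p under 0.05 (3.1% of all tested genes). The log2 fold change was above 0 for 62 and below 0 for 24, with a median of 0.33, against 48.2% of all tested genes above 0. With the pan-endothelial level as a covariate it was above 0 for 65 with a median of 0.43. It was above 0 for 50 with a median of 0.09 without naive replicate 5, for 47 without SCVS replicate 4, for 45 with the detected genes as a covariate, and for 37 with a median of −0.11 without both replicates. By group it was above 0 for 10 of 13 other GTPases (7 without naive replicate 5), 4 of 4 other IRF genes (4), 6 of 11 other RNA-acting effectors (7), 29 of 36 other interferon-stimulated genes (23), 8 of 11 other receptor chains and proximal signalling genes (6) and 5 of 11 other sensors and adaptors (3). The smallest p upward belonged to Phf11b, a PHD finger gene, with 0 to 12 counts in naive and 116 to 1219 counts in SCVS replicates. DESeq2 called it (adjusted p = 1.98e-06) and edgeR did not (0.964). Next came Irf5, with 0 to 15 counts in naive mice and 0 to 623 after SCVS, highest in SCVS replicate 4, and Gbp5, with 1 to 76 counts in naive mice and 0 to 439 after SCVS. Downward the smallest p were those of Socs3, a feedback inhibitor of JAK kinases with 0 to 149 counts in naive mice and 0 to 27 after SCVS, Dtx3l, a ubiquitin ligase gene with 3 to 1068 and 6 to 510 counts, and Cgas, the cytosolic DNA sensor, with 0 to 207 and 0 to 55 counts. For these 5 the adjusted p of edgeR was 1.00.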

How the data were processed

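RNA of sorted meningeal LECs, 5 naive and 5 SCVS replicates, was amplified with a whole-transcriptome kit before sequencing. The authors trimmed the reads and aligned them with Hisat2, and they deposited raw read counts per gene, with no normalization and no filter. The study's methods name mm9, while the submitters' processing notes name GRCm38, cutadapt 1.9.1, HISAT2 2.0.1, HTSeq 0.6.1 and DESeq2. The annotation and the use of strand are not given in the sources used here. Symbols and identifiers are those of the count table. Coordinates and exon lengths are from GENCODE M1 (mm9), which held 58.8% of the 55401 identifiers and all 35 members, and promoters are from RefSeq (GRCm38.p6).

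Groups were taken from the labels. CPM was computed by the column total. The fit took in genes that exceeded 5 counts in 3 or more of the 10 replicates and was made with edgeR 4.0.16 (R 4.3.3, TMM scaling, quasi-likelihood test, Benjamini-Hochberg adjustment over 14815 genes, threshold 0.1). The biological coefficient of variation was 1.59. Single genes were also tested by an exact permutation of the mean CPM (two-sided, 252 arrangements). One such test was computed for each of the 35 members, with no adjustment among them. A member is given replicate by replicate where 5 or more of the 10 replicates exceeded 3 counts or where it had an unadjusted p under 0.05. Pathway genes outside the list are named where they are among the 3 smallest p in each direction. Alternatives were DESeq2 1.42.0, limma 3.58.1 with voom, other scalings and filters, covariates, a replicate block, and each replicate left out in turn. The members and gene lists were chosen with earlier results of these data known. Replicates are separate pools of animals. More than 1 cohort was used, and which replicate belonged to which is not given, so no value within cohorts was computed. Shared sequence was counted as 100-base windows of a member's transcript found in the transcript of another gene.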

Additional observations from a re-analysis of the deposited data

Results flagged for a closer look

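In 89 groups of 5 replicates, 1 for each gene or sum and condition, the gap of the highest or lowest replicate to its neighbour was divided by the whole range and set against Dixon's critical value of 0.71. It was exceeded in 8 groups (8.99%). Chance gives about 1 in 20 where values are normally distributed, which CPM of single genes are not, and for Oasl1 and Mx1 in naive mice 4 of the 5 values are 0, which fixes the ratio, so nothing is read from the number of groups. Among naive mice the replicate that stood alone was naive replicate 1 for Ifnar1 (199.3 CPM), naive replicate 2 for Oas1a (42.5 CPM), and naive replicate 4 for Oasl1 (21.7 CPM) and Mx1 (0.295 CPM, 4 counts). Among SCVS mice it was SCVS replicate 4 for Irf7 (238 CPM) and Gbp2 (483 CPM), SCVS replicate 5 for Ifitm1 (279.9 CPM) and SCVS replicate 1 for Mx2 (12.3 CPM). In each of the 8 it was the highest of its group.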

How the results depend on the processing

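No member was called by edgeR, DESeq2, limma or the likelihood ratio test, under any scaling, filter, covariate or left-out replicate. Over all tested genes the count of calls was 114 in DESeq2, 123 in DESeq2 without Cook's filter and independent filtering, 3 in limma voom and 38 in edgeR's likelihood ratio test, against 0 by the quasi-likelihood test. Fits chosen after seeing the data gave 270 in DESeq2 without naive replicate 5 and 1 with the pan-endothelial level as a covariate. Of the other pathway genes, 1 was called by each of the DESeq2 fits and by the likelihood ratio test. The number of members with a log2 fold change above 0 was 27, and 25 with the pan-endothelial level as a covariate (median 0.36). It was between 20 and 28 when each replicate was left out in turn, 16 when the detected genes of each replicate entered as a covariate and 12 without both naive replicate 5 and SCVS replicate 4 (also chosen after seeing the data). The median was −0.021 and −0.12 in these last fits, and 0.14 to 0.53 over the replicates left out. With the detected genes as a covariate the log2 fold change was −0.083 for Irf7, −0.13 for Ifit3, −0.021 for Gbp2 and −0.14 for Ifi44, and without both replicates it was −0.15 for Irf7, −0.22 for Gbp2 and −0.022 for Ifi44. The causes were not tested. The number of members whose groups did not overlap was 0, between 0 and 1 over the replicates left out, and 1 without both replicates. Same-numbered replicates correlated at −0.01 to 0.14 in their deviations, so the numbers were not taken to pair them, although 4 of the 5 naive replicates correlated best with the SCVS replicate of their own number (naive replicate 3 did not). With the replicate number as a block, 0 genes and 0 members were called, 266 genes had an unadjusted p under 0.05, and 26 members lay above 0 with a median of 0.53. Of the 33 tested members 25 were above 3 counts throughout, and Mx1 and Mx2 had too few counts to be tested.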
